A study of Homo sapiens with 8 samples.

Results

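The genes described here encode the proteins of the cytoplasmic ribosome. They were the rows of the combined count table whose gene symbol has the form RPL or RPS with a number, with or without a letter or paralog suffix, plus RPLP0, RPLP1, RPLP2 and RPSA, where the assembly itself names the gene. This gave 82 genes of 29937 genes and loci, and 269 of the 96614 transcripts listed. Of the 82 genes, 50 encode large subunit proteins (the stalk proteins included) and 32 encode small subunit proteins. RPL3L and RPL10L were looked for as paralogs, and neither was among the rows of the table.

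The RNA came from H1, an established human pluripotent stem cell line, in 4 groups of 2 libraries each, with long reads from a PacBio Sequel II. Undifferentiated cells (hPSC) were kept in mTeSR1 on Matrigel. Ectoderm cells were in medium with 15% KOSR, 2 µM A83-01, 2 µM PNU-74654 and 2 µM Dorsomorphin. Endoderm cells received WNT3A, 100 ng/ml Activin A and 0.5% FBS. Mesoderm cells received 100 ng/ml VEGF, 100 ng/ml BMP4, 10 ng/ml bFGF and 0.5% FBS, with 100 ng/ml Activin A for the initial 24 h. The 3 differentiated groups were collected after 5 days. The series was made to follow transposable element expression, and the ribosomal protein genes are read here from the same libraries. The labels do not say whether the repeats were separate cultures, so p-values measure only the spread between libraries.

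Library totals ran from 503840 to 1180888 counted reads, of which 13050 to 27890 fell on ribosomal protein genes. Marker lists were called with edgeR's quasi-likelihood test at a Benjamini-Hochberg adjusted p under 0.05, as below. Against hPSC, 5 of 6 tested ectoderm markers (8 listed) were higher in ectoderm and 7 of 7 endoderm markers (8 listed) were higher in endoderm. The endoderm list held no reads in hPSC and at most 0.00151% in any ectoderm or mesoderm library. Its markers thus passed the filter on low counts only through endoderm, and their count is not independent of that filter. In mesoderm, 3 of 5 mesoderm markers were higher and 1, KDR, lower, while 4 of the 5 were higher and 0 lower in endoderm. Also higher in mesoderm were 13 of 13 tested amnion and trophoblast markers (16 listed). The amnion and trophoblast list held 0.738% and 0.799% of mesoderm reads against 0.106% and 0.115% for the mesoderm list, and at most 0.011% of reads in any library of the other groups. At least some of its markers thus passed the filter only through mesoderm, and their count shares the limit given for endoderm. The part of such cells in the mesoderm results below was not tested. These are bulk libraries, in which fewer cells of a type and less RNA per cell cannot be told apart.

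A cytoplasmic ribosome pairs a small subunit, which reads the mRNA, with a large subunit, which joins amino acids, and each protein is needed in about equal amounts. Most ribosomal protein mRNAs start with a 5′ terminal oligopyrimidine (TOP) tract, a C followed by a run of pyrimidines, through which their translation is controlled together. Embryonic stem cells are known for a low rate of protein synthesis, which rises on differentiation.

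The starts of 5 member transcripts show what the TOP tract is. The last line is a member, RPS26, whose RefSeq start lacks it, with a pyrimidine run just inside that start. Each line gives the 10 bases before and the 20 bases from the RefSeq start (GRCh38.p14), with the unbroken run of C and T from the start in capitals.
RPS14, chr5:150449720-150449749, minus strand: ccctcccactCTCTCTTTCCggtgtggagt
RPS24, chr10:78033853-78033882, plus strand: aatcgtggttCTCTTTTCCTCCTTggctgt
RPL36A, chrX:101391001-101391030, plus strand: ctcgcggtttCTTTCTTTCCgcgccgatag
RPL13, chr16:89560672-89560701, plus strand: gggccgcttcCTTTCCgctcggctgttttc
RPLP2, chr11:809957-809986, plus strand: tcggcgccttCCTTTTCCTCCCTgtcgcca
RPS26, chr12:56041908-56041937, plus strand: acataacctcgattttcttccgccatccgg

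A RefSeq start was matched by symbol for 66 members. A C at the start followed by at least 4 bases that are each C or T, on the strand of the gene, was present in 46 of the 66 (69.7%) and in 1429 of all 35116 RefSeq starts (4.07%). Of the 66 members, 49 had their most read assembled transcript starting within 10 nt of the RefSeq start. The match describes the annotated start letters. In ectoderm against hPSC the median log2 fold change was -1.08 over the 45 tested members with the tract and -1.10 over the 20 without it.

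Ribosomal protein reads made up a smaller share of all counted reads in ectoderm and mesoderm than in hPSC and endoderm. The share was 3.55% and 3.78% in hPSC, 3.06% and 3.37% in endoderm, 2.46% and 2.59% in mesoderm, and 2.36% and 2.44% in ectoderm. Both hPSC libraries lay above both libraries of every other group. Ectoderm and mesoderm were next to each other, with no overlap but a gap of under 0.02 percentage points. Large subunit genes gave 1.43 to 1.78 reads per small subunit read, and the lowest and highest of these ratios came from an ectoderm and an hPSC library.

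The share depended on which reads were counted around the ribosomal protein genes, whose transcripts are short. The length of the assembled transcript, averaged over reads, was 3298 and 3114 nt in hPSC, 4406 and 4650 nt in ectoderm, 3765 and 3840 nt in mesoderm, and 3073 and 2975 nt in endoderm. Ectoderm and mesoderm, where transcripts were longer, had the smaller ribosomal protein shares. Among reads of assembled transcripts of at most 1500 nt, the ribosomal protein share was 16.8% and 15.7% in hPSC, 19.5% and 21.1% in ectoderm, 16.7% and 17.4% in mesoderm, and 14.5% and 14.3% in endoderm. Ectoderm was then highest and endoderm lowest, the reverse of their order over all reads. With the length taken from the matching GENCODE 29 transcript, the shares were 18.1% and 17.8%, 18.2% and 19.3%, 17.0% and 17.9%, and 15.8% and 16.2% in the same order of groups, so that hPSC and mesoderm overlapped. The part of RNA or library length in the share was not tested beyond these values.

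**Figure D1:**
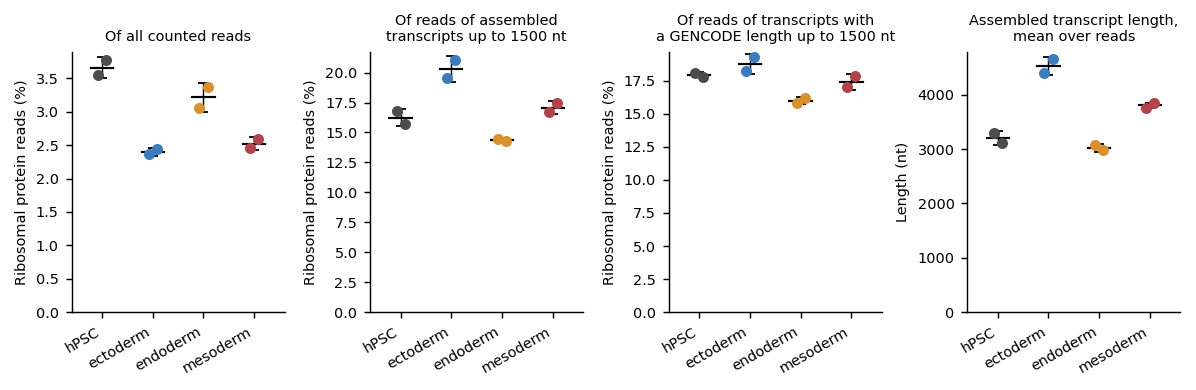
Ribosomal protein reads as a percent of all counted reads, of reads of assembled transcripts up to 1500 nt, and of reads of transcripts whose GENCODE transcript is up to 1500 nt, with the mean assembled transcript length per read in nt (right). Points are the 2 libraries of each group, lines their mean and bars 1 SD. Ectoderm is lowest at 2.36% and 2.44% of all reads and highest at 19.5% and 21.1% of reads of short transcripts.

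Gene by gene, most ribosomal protein genes were lower in ectoderm and mesoderm than in hPSC, and few differed between endoderm and hPSC. Counts were fitted in edgeR with TMM library factors (0.726 to 1.27), and 81 of the 82 genes passed the filter on low counts. RPL22L1, with 1 to 8 reads per library, did not pass. In ectoderm against hPSC, 53 members were lower and 2 higher, beside 24.8% lower and 23.8% higher of all 10847 genes tested. In mesoderm, 42 members were lower and 0 higher, beside 18.2% and 17.0% of all genes. In endoderm, 4 members were lower and 2 higher, beside 13.7% and 13.4% of all genes.

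The median log2 fold change of the members was -1.08 in ectoderm, -0.90 in mesoderm and 0.10 in endoderm, beside -0.01, 0.01 and -0.13 over all genes tested. Large and small subunit genes had similar medians in ectoderm (-1.11 and -0.95) and in mesoderm (-0.89 and -0.96). The 3 comparisons share the hPSC libraries. Set directly against endoderm, 59 members were lower and 4 higher in ectoderm, beside 29.9% and 33.1% of all genes (63.1% in either direction). In mesoderm against endoderm, 53 were lower and 2 higher, beside 23.2% and 23.9% (47.1% in either direction). Ectoderm and mesoderm differed at 4 members, 2 in each direction, beside 17.3% lower and 18.1% higher of all genes. Over the 4 groups, 65 of 81 members passed the edgeR test, beside 77.7% of all genes, so the share of members that differed anywhere was near that of genes in general.

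These counts moved with the length correction. With a trend on assembled transcript length removed from each library, 14 members were higher and 14 lower in ectoderm against hPSC. Their median was -0.05. Of all 10847 genes, 1734 were then higher and 2164 lower in ectoderm, so the member counts there were near the share of all genes. For mesoderm it was 6 higher and 15 lower, with a median of -0.11, beside 1614 and 1806 of all genes. For ectoderm against endoderm it was 18 higher and 24 lower, beside 2775 and 3193. For mesoderm against endoderm it was 12 higher and 18 lower, beside 2126 and 2513. A trend on the GENCODE length of the same genes was chosen after seeing the data. It gave 4 members higher and 30 lower in ectoderm, beside 2160 and 2495 of all genes. In mesoderm it gave 4 higher and 17 lower, beside 1654 and 1944. Scaling by library totals alone shifted the median of all genes to 0.39 in ectoderm, 0.24 in mesoderm and -0.46 in endoderm. Member medians were then -0.65, -0.65 and -0.23, which for endoderm is negative but above the all-gene median, as it was with TMM factors.

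**Figure D2:**
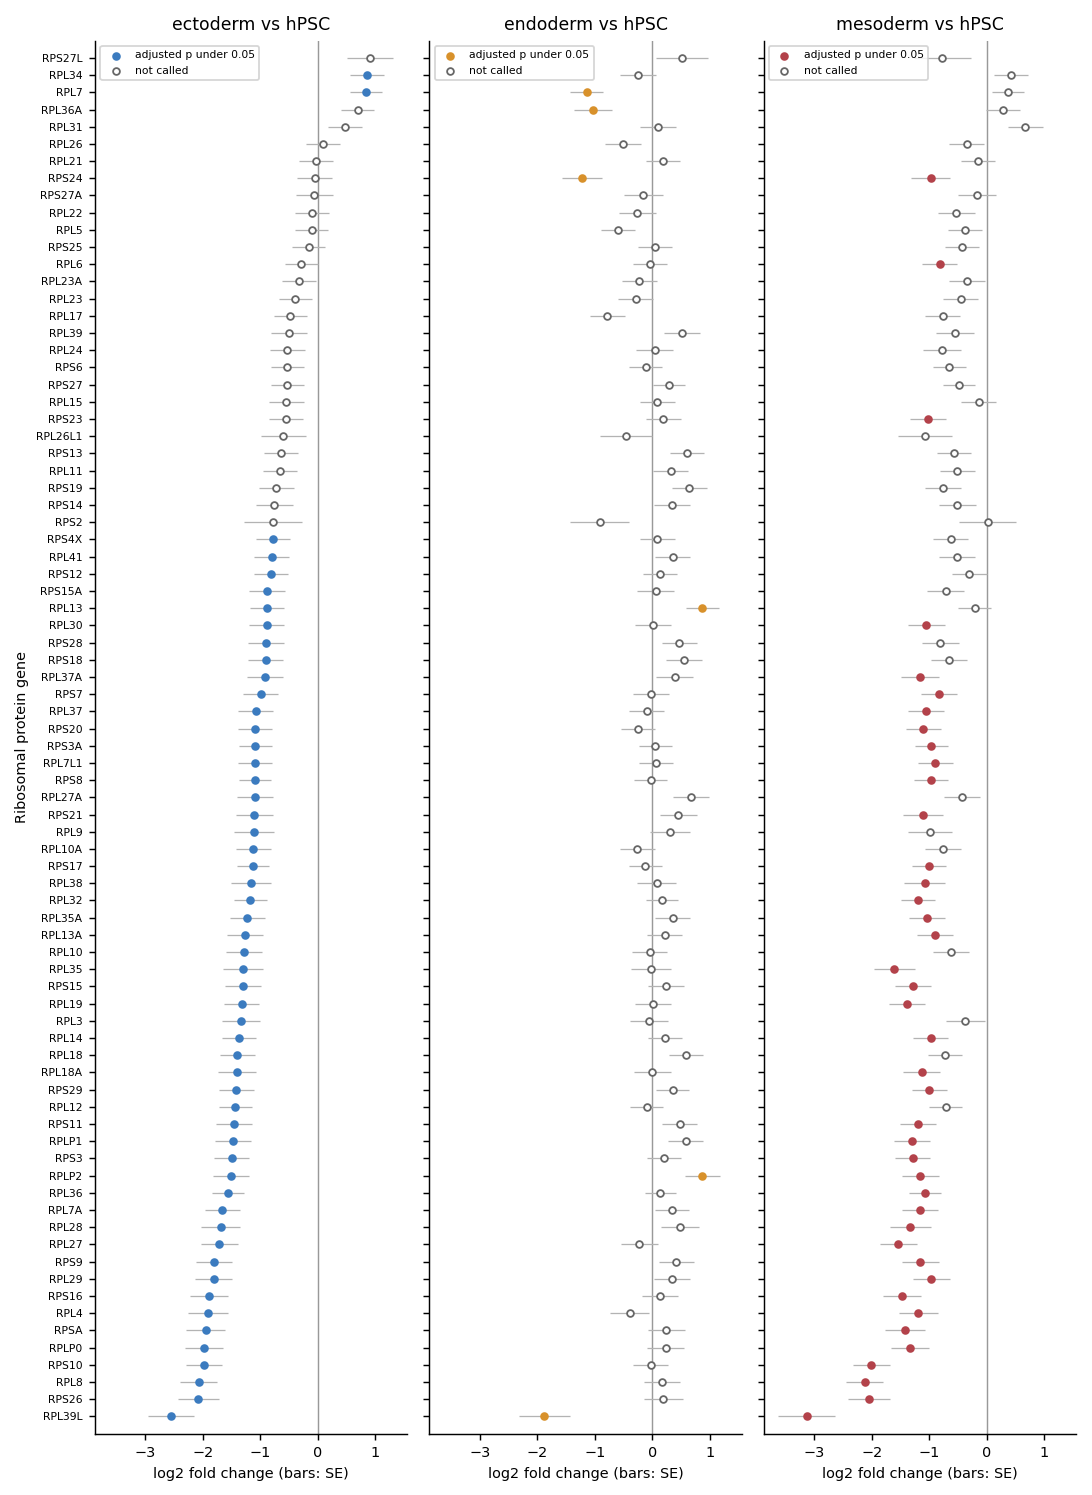
Log2 fold change against hPSC (x axis) of 80 of the 81 tested ribosomal protein genes (y axis, ordered by the ectoderm value) in ectoderm, endoderm and mesoderm, with the SE as bars. Filled points have an edgeR adjusted p under 0.05, which held for 54 of the genes drawn in ectoderm, 41 in mesoderm and 6 in endoderm.

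Leaving out a library changed the mesoderm count most. Without either mesoderm library, far fewer members were called against hPSC, and fewer of all genes. Member medians were then -0.72 without mesoderm repeat 1 and -0.90 without repeat 2, beside 0.05 and 0.02 over all genes. Without ectoderm repeat 1 or 2, ectoderm medians were -0.82 and -0.93, with fewer calls among members and all genes. Endoderm medians against hPSC were 0.24 and 0.15 without endoderm repeat 1 and 2, again with fewer calls in both. They were -0.07 without hPSC repeat 1 and 0.34 without hPSC repeat 2, with more calls in both. In ectoderm against mesoderm, medians were -0.13 and -0.05 without hPSC repeat 1 and 2. More members and more of all genes were called there, and fewer of both without any of the 6 other libraries.

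Members differed from each other most in the direction of RPL7, RPL36A and RPL34. RPL7, a large subunit protein that binds rRNA, had a CPM, the count scaled to a library total of 1e6, of 416 and 322 in hPSC, 914 and 844 in ectoderm, 591 and 522 in mesoderm, and 140.0 and 123 in endoderm. Both ectoderm libraries were above all others and both endoderm libraries below all others. The log2 fold change against hPSC was 0.84 ± 0.28 (SE; edgeR adjusted p = 0.021) in ectoderm and -1.14 ± 0.29 (edgeR adjusted p = 0.0091) in endoderm. Ectoderm exceeded endoderm by 1.98 ± 0.29 on the log2 scale (edgeR adjusted p = 3.9e-05). Against hPSC, the ectoderm call was lost without ectoderm repeat 1 (edgeR adjusted p = 0.053) and the endoderm call without either endoderm library (0.070 and 0.10).

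RPL36A, a large subunit protein near the site where spent tRNA leaves, followed the same order. It had 108 and 87.2 CPM in hPSC, 208 and 213 in ectoderm, 136 and 143 in mesoderm, and 39.3 and 35.8 in endoderm. No 2 groups overlapped. Its value against hPSC was -1.03 ± 0.32 in endoderm (edgeR adjusted p = 0.028; 0.10 with DESeq2) and 0.69 ± 0.28 in ectoderm (edgeR adjusted p = 0.053). Without either endoderm library the endoderm call was lost (edgeR adjusted p = 0.14 and 0.17), as it was without any of the ectoderm or mesoderm libraries (0.058 to 0.060), while the ectoderm value was called without hPSC repeat 2 (0.032) and without any of the endoderm or mesoderm libraries (0.037 to 0.040). RPL34, another large subunit protein, was at 121 and 128 CPM in hPSC and 323 and 290.5 in ectoderm, with a log2 fold change of 0.86 ± 0.29 (edgeR adjusted p = 0.024). It was at 95.6 and 73.4 CPM in endoderm and 194 and 202 in mesoderm. With a trend on GC content removed, an alternative chosen after seeing the data, the ectoderm values of RPL7 and RPL34 were 0.24 (adjusted p = 0.51) and 0.38 (adjusted p = 0.31) and both calls ended. The endoderm calls of RPL7 (-0.72, adjusted p = 0.074) and RPL36A (-0.62, adjusted p = 0.17) ended with it too. The RPL34 call was also lost without ectoderm repeat 1 (edgeR adjusted p = 0.065) and without hPSC repeat 1 (0.058).

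Low members in both ectoderm and mesoderm included RPS26 and RPL8. RPS26, a small subunit protein along the mRNA exit channel, had 248 and 297 CPM in hPSC, 83 and 93.1 in ectoderm, 86.6 and 69.5 in mesoderm, and 183 and 316 in endoderm. Its values in ectoderm and mesoderm overlapped and lay below every hPSC and endoderm library. Its log2 fold change was -2.08 ± 0.35 in ectoderm (edgeR adjusted p = 0.00027) and -2.06 ± 0.37 in mesoderm (edgeR adjusted p = 0.00055). RPL8, which lies close to the catalytic centre, had 1227 and 1414 CPM in hPSC and 1014 and 1363 in endoderm. In ectoderm it was at 430.2 and 425 CPM, and in mesoderm at 375 and 347. Its log2 fold change was -2.07 ± 0.32 in ectoderm (edgeR adjusted p = 0.00015) and -2.12 ± 0.33 in mesoderm (edgeR adjusted p = 0.00016).

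RPS10, a protein of the small subunit head, was among the 4 lowest in mesoderm. It had 419.8 and 523 CPM in hPSC, 168 and 159 in ectoderm, 132 and 149 in mesoderm, and 338 and 406 in endoderm. Mesoderm lay below every other group, and the log2 fold change against hPSC was -2.01 ± 0.32 (edgeR adjusted p = 0.00022).

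The stalk proteins RPLP0, RPLP1 and RPLP2, which bind the elongation factors, fell together in ectoderm and mesoderm. RPLP0 had 1349.9 and 1808 CPM in hPSC, 566 and 537 in ectoderm, 721 and 789.9 in mesoderm, and 1376 and 1634 in endoderm. RPLP1 had 560.4 and 596 CPM in hPSC, 267 and 297 in ectoderm, 235 and 324 in mesoderm, and 617 and 768 in endoderm. RPLP2 had 141 and 144 CPM in hPSC, 66.1 and 68.2 in ectoderm, 65.9 and 85.3 in mesoderm, and 183 and 230.3 in endoderm. All 3 were lower in both libraries of ectoderm and mesoderm than in any library of hPSC or endoderm.

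Against hPSC the log2 fold changes in ectoderm were -1.97 ± 0.33 for RPLP0 (edgeR adjusted p = 0.00027), -1.48 ± 0.31 for RPLP1 (0.0013) and -1.51 ± 0.31 for RPLP2 (0.0012). In mesoderm they were -1.33 ± 0.33 (edgeR adjusted p = 0.0058), -1.30 ± 0.31 (0.0049) and -1.15 ± 0.33 (0.012). In endoderm RPLP2 was higher by 0.87 ± 0.31 (edgeR adjusted p = 0.045), while RPLP0 and RPLP1 were not called. With the assembled length trend removed, RPLP1 and RPLP2 lost their calls in ectoderm and mesoderm, as RPLP0 did in mesoderm. RPLP2 then lost its endoderm call too (edgeR adjusted p = 0.071), as it did with library totals only (0.14) or the GC trend removed (0.19). With DESeq2 it was also lost (adjusted p = 0.081), and with only matching transcripts counted (edgeR adjusted p = 0.051). The GC trend ended the RPLP2 call in ectoderm as well (edgeR adjusted p = 0.054). Without mesoderm repeat 1 the mesoderm calls of all 3 were lost (edgeR adjusted p = 0.065, 0.082 and 0.14), and without repeat 2 that of RPLP2 (0.056). The endoderm call of RPLP2 was lost without either endoderm library (edgeR adjusted p = 0.051 and 0.20), hPSC repeat 1 (0.074) or ectoderm repeat 1 (0.050). Without hPSC repeat 2, RPLP0 and RPLP1 were called higher in endoderm (edgeR adjusted p = 0.049 and 0.019).

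The other member higher in endoderm was RPL13, a large subunit protein. It had 824 and 512 CPM in hPSC, 459 and 492 in ectoderm, 635 and 699 in mesoderm, and 885 and 1015 in endoderm. The 2 hPSC libraries differed by over 300 CPM, and endoderm lay above both. The endoderm value of 0.88 ± 0.29 (edgeR adjusted p = 0.037) lost its call with library totals only, with the GC trend removed (0.60, adjusted p = 0.14) and without either endoderm library (edgeR adjusted p = 0.064 and 0.16). In ectoderm it was lower than in hPSC (-0.89 ± 0.29, edgeR adjusted p = 0.021), a call that held without either hPSC library and was lost without any of the 6 others (0.053 to 0.16). The ectoderm value was -0.19 (adjusted p = 0.64) with the GC trend removed, -0.14 (0.73) with the assembled length trend removed and -0.49 (0.14) with library totals only, and each ended the call.

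The 3 most read members were RPL3, RPS19 and RPL15. RPL3, which is needed for the catalytic centre to form, was the most read with 13466 reads, and had 2952 and 3582 CPM in hPSC, 1952 and 1583 in ectoderm, 2939 and 3108 in mesoderm, and 2459 and 2588 in endoderm. Ectoderm was below every other group (-1.33 ± 0.34 against hPSC, edgeR adjusted p = 0.0046; 0.073 without ectoderm repeat 2), and hPSC and mesoderm were not called apart (-0.37 ± 0.33, edgeR adjusted p = 0.41; 0.038 without hPSC repeat 1). Against mesoderm the ectoderm value was -0.97 ± 0.34 (edgeR adjusted p = 0.035), the lowest of the 81 members in that comparison. The ectoderm call against hPSC ended with the GC trend removed (-0.63, adjusted p = 0.12), with the GENCODE length trend removed (-0.54, 0.17) and with the assembled length trend removed (-0.17, 0.68). RPS19, a small subunit head protein mutated in Diamond-Blackfan anaemia, had 7760 reads, and RPL15, a large subunit core protein, had 6634. Neither was called against hPSC in any group with all libraries. Without hPSC repeat 1, RPS19 was called lower in ectoderm and mesoderm (edgeR adjusted p = 0.0033 and 0.0031) and RPL15 lower in ectoderm (0.012). Without hPSC repeat 2, RPS19 was called higher in endoderm (edgeR adjusted p = 0.016).

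RPS2, named after its values were seen, was the member on which the hPSC libraries stood furthest apart. It had 1084 reads (2087 CPM) in hPSC repeat 1 and 167 reads (297 CPM) in repeat 2, all on 1 transcript. Its other libraries ran from 428 CPM in endoderm repeat 2 to 1309 and 1310.0 CPM in mesoderm. The hPSC repeats thus enclosed every other library, and RPS2 was called in none of the comparisons. These repeats also stood apart in their TMM factors, at 1.06 and 0.845. The factors were 1.27 in both ectoderm libraries, 0.774 and 0.726 in endoderm, and 1.11 and 1.12 in mesoderm. All groups shared 1 estimate of the spread, and the hPSC libraries are the reference for each differentiated group.

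The GC content of the transcript varied with the size of the difference among members. Member GC, averaged over the reads of matching GENCODE transcripts, ran from 42.3% to 62.9%. Across the 81 members, Pearson's r between GC and the log2 fold change against hPSC was -0.53 in ectoderm, -0.29 in mesoderm, and 0.30 in endoderm. Across 9838 other genes with a GC value it was -0.50, -0.20 and 0.15. The points share libraries and normalization, and the direction was the same in members and other genes. The 27 members of highest GC had a median log2 fold change of -1.40 in ectoderm with 23 lower, and the 26 tested of the 27 lowest had -0.58 with 12 lower and 2 higher. Mean GC per read of the whole library was 52.4% and 51.9% in hPSC, 49.0% and 48.7% in ectoderm, 51.5% and 51.1% in mesoderm, and 53.1% and 53.5% in endoderm. With a GC trend removed, 39 members were lower and 0 higher in ectoderm, and 40 lower and 0 higher in mesoderm. Of all 10847 genes, 2136 were then lower and 1797 higher in ectoderm, and 1861 lower and 1657 higher in mesoderm.

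**Figure D3:**
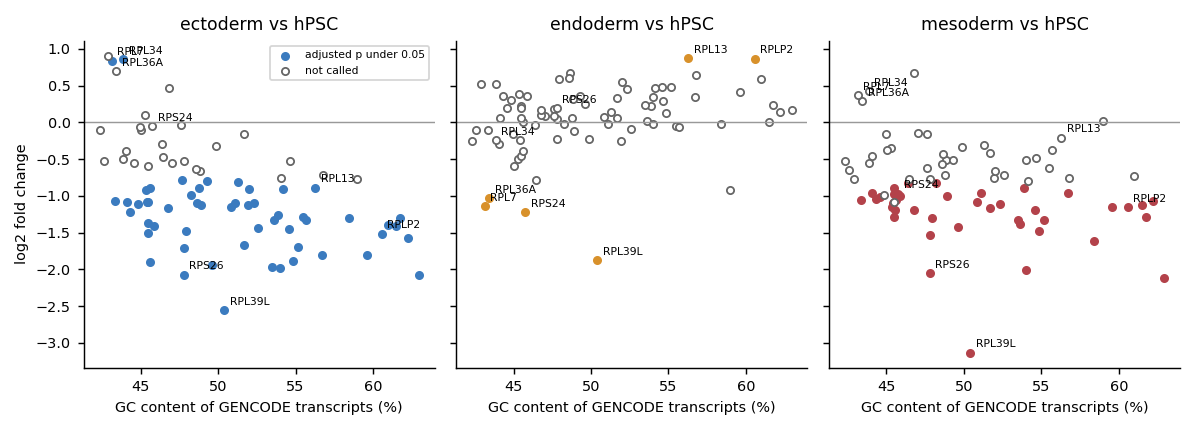
Log2 fold change against hPSC (y axis) of 80 of the 81 tested ribosomal protein genes against the GC content of their GENCODE transcripts in percent (x axis), in ectoderm, endoderm and mesoderm. Filled points have an edgeR adjusted p under 0.05. RPL7, RPL34 and RPL36A, at about 43% GC, are among the highest in ectoderm and RPL7 and RPL36A near the bottom in endoderm.

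RPS24, a small subunit protein mutated in Diamond-Blackfan anaemia, was called for a change in its transcripts between ectoderm and both hPSC and endoderm. Its gene lies on chromosome 10 (GRCh38), plus strand. Between exon 4 and the last exon, transcripts carry no further exon, a 22-nt exon, a 25-nt exon that begins 3 nt earlier, or an 18-nt exon with the 22-nt exon. The choice decides where the protein ends. The lines show the last 6 bases of exon 4 and the 24 bases that follow in GENCODE 29 transcripts, with the annotated stop codon in capitals.
No middle exon (ENST00000613865): aaaaagccgaaggagTAAaggtgctgcaat
22-nt exon, chr10:78040204-78040225 (ENST00000372360): aaaaagTGAgctggagattggatcacagcc
25-nt exon, chr10:78040201-78040225 (ENST00000435275): aaaaagcagTGAgctggagattggatcaca

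The form with no middle exon had 24 of 49 reads of the 4 forms in hPSC repeat 1 and 16 of 42 in repeat 2. It had 7 of 127 and 2 of 139 in ectoderm, 8 of 15 and 9 of 20 in endoderm, and 3 of 29 in each mesoderm library. As a mean share this was 43.5% ± 7.70 (SD, n = 2) in hPSC, 3.48% ± 2.88 in ectoderm, 10.3% in both mesoderm libraries and 49.2% ± 5.89 in endoderm. Both hPSC and both endoderm libraries were above all ectoderm and mesoderm libraries.

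The exact 95% binomial intervals, which cover counting error only, were 34.4% to 63.7% and 23.6% to 54.4% in hPSC, and 2.24% to 11.0% and 0.175% to 5.10% in ectoderm. With 15 to 29 reads per library in endoderm and mesoderm, the intervals there were wide, from 26.6% to 78.7% in endoderm repeat 1 and from 2.19% to 27.4% in each mesoderm library. The 22-nt form was at 14.3% and 7.14% in hPSC, 44.9% and 54.0% in ectoderm, 31.0% and 62.1% in mesoderm, and 20.0% and 40.0% in endoderm. It was higher in every library of the other groups than in hPSC. The 25-nt form was at 36.7% ± 8.66 in hPSC, 38.8% ± 1.94 in ectoderm, 41.4% ± 19.5 in mesoderm, and 14.2% ± 1.18 in endoderm.

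Transcript choice within a gene was tested with edgeR's diffSpliceDGE and Simes adjustment over 2638 genes, of which 42 were members. In ectoderm against hPSC, 5 of the 42 were called (2.58% of all genes), RPS24 among them (edgeR adjusted p = 0.00050). Its form with no middle exon was lower by -2.45 on the log2 scale relative to the gene and the 22-nt form higher by 1.48. The form with no middle exon had 24 and 16 reads in hPSC and at most 9 in any other library. It thus passed the filter on low counts only through hPSC, and the RPS24 test against hPSC is not independent of that excess. The same form was lower in ectoderm than in endoderm by -2.54 (edgeR adjusted p for the gene = 0.00070). RPS24 was not called in mesoderm (edgeR adjusted p = 0.11) or endoderm (0.66) against hPSC. The ectoderm call held in 7 of 8 fits that left out a library and was lost without ectoderm repeat 2 (edgeR adjusted p = 0.39). The call against endoderm was lost without ectoderm repeat 2 (0.13) and without endoderm repeat 1 (0.061).

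The 3 main RPS24 forms are 534 to 656 nt long in the assembly. The most read form with no middle exon and the 25-nt form were assembled from a start at 78033760, which is 103 nt upstream of the TOP start shown above, and the most read 22-nt form from the TOP start at 78033863. The form with no middle exon and the 25-nt form share an assembled start but end at 78040697 and 78040713. In hPSC and ectoderm, the former had mean shares of 43.5% and 3.48%, and the latter 36.7% and 38.8%. The 22-nt reads include 31 on a transcript with another start, at 78034053. The part of the start or end in these shares was not tested. As a gene, RPS24 had 114 and 109 CPM in hPSC, 125 and 163 in ectoderm, 71.6 and 61.5 in mesoderm, and 29 and 46.1 in endoderm. Its level was lower than in hPSC in endoderm (-1.22 ± 0.35, edgeR adjusted p = 0.018) and mesoderm (-0.97 ± 0.34, edgeR adjusted p = 0.035) and was not called in ectoderm (-0.05 ± 0.31). With DESeq2 neither call held (adjusted p = 0.067 and 0.12), and with the length trend removed the ectoderm value was 1.11. The endoderm call was also lost without endoderm repeat 1 (edgeR adjusted p = 0.21), and the mesoderm call without any mesoderm or ectoderm library (0.066 to 0.23).

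**Figure D4:**
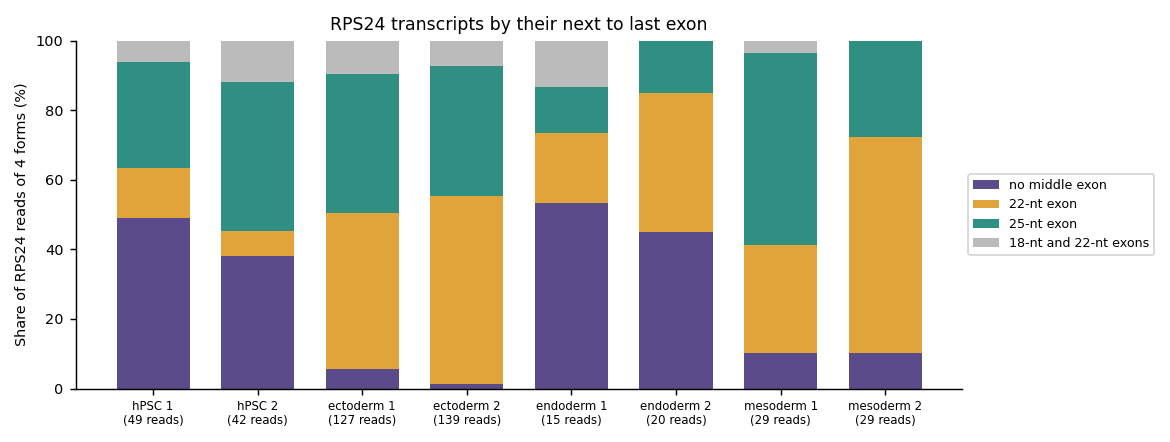
Share of RPS24 reads in percent (y axis) by the exon between exon 4 and the last exon, in each of the 8 libraries (x axis, with the reads of the 4 forms). The form with no middle exon takes 38.1% to 53.3% in hPSC and endoderm and 1.44% to 10.3% in ectoderm and mesoderm.

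RPS14, a small subunit platform protein whose loss is linked to the 5q- syndrome, has 2 main forms on chromosome 5 (GRCh38), minus strand. They differ at both the start and the 3′ end. The most read form was assembled from 150449739, the TOP start shown above, to 150442635. The other ends earlier, at 150444229. Which of these differences goes with the shares below was not tested. The second form starts 48 nt downstream, at 150449691, where the letters are not a TOP tract.
RPS14, first 20 bases from 150449691 (ENST00000312037): gggcgcgacaatcggggggc

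This second form had 86 and 100 reads in hPSC (15.5% and 13.4% of RPS14 reads), 33 and 33 in ectoderm (2.91% and 3.48%), 23 and 12 in mesoderm (3.94% and 2.59%), and 46 and 73 in endoderm (7.10% and 9.23%). hPSC was highest, endoderm between, and ectoderm and mesoderm overlapped at the bottom. Relative to the gene it was lower by -1.49 in ectoderm (edgeR adjusted p for the gene = 0.0013) and by -1.45 in mesoderm (edgeR adjusted p = 0.0029), beside 2.99% of all genes called in mesoderm. These calls were lost without either library of the differentiated group (edgeR adjusted p = 0.22 and 0.23 in ectoderm, 0.086 and 0.34 in mesoderm). The gene as a whole was not called against hPSC in any group with all libraries. It was called lower in ectoderm (-1.07, edgeR adjusted p = 0.00045) and mesoderm (-0.82, 0.0091) without hPSC repeat 1, and higher in endoderm (0.71, 0.038) without hPSC repeat 2.

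RPL37A, a zinc-binding large subunit protein, was called for transcript choice through a transcript that lies apart from the rest. This was an unspliced stretch of 13636 nt, downstream of the main transcripts and without a reference match, which the assembly lists under RPL37A. It had 1 and 3 reads in hPSC, 34 and 26 in ectoderm, 3 and 0 in mesoderm, and 0 and 1 in endoderm. Both ectoderm libraries were above all others, at 14% and 12.3% of the reads of the gene. With 0 to 3 reads in every other library, the stretch passed the filter on low counts only through ectoderm. The tests that follow are thus not independent of its excess there. The edgeR adjusted p was 0.0018 in ectoderm against hPSC, 5.9e-05 against endoderm (5 of 42 members called, beside 7.58% of all genes) and 0.030 against mesoderm (1 of 42, beside 2.77%). The call against hPSC was lost without either ectoderm library (edgeR adjusted p = 0.24 and 0.27), and that against endoderm held in 8 of 8 fits that left out a library. The call against mesoderm held in 2 of 8, those without an hPSC library, was lost in the others (edgeR adjusted p = 0.087 to 1) and was lost at a minimum count of 5 (0.057). Whether these reads belong to RPL37A mRNA was not tested.

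The remaining calls against hPSC were RPL34 and RPL21 in ectoderm and RPL26 in mesoderm. RPL26, a large subunit protein at the exit of the peptide tunnel, had a second form of 871 nt, which took 20.0% and 29.6% of its reads in hPSC, 11.3% and 11.6% in ectoderm, 5.17% and 7.46% in mesoderm, and 19.6% and 28.6% in endoderm. Mesoderm lay below all other groups (edgeR adjusted p = 0.040). The RPL26 call held in 1 of 8 fits that left out a library, the one without hPSC repeat 1, and was lost in the others (edgeR adjusted p = 0.17 to 0.70) and at a minimum count of 5 (0.19). RPL34 and RPL21 had edgeR adjusted p values of 0.017 and 0.030 in ectoderm. The RPL34 call was lost without either ectoderm library (edgeR adjusted p = 0.65 and 0.24), hPSC repeat 2 (0.32) or mesoderm repeat 2 (0.056). The RPL21 call was lost without either ectoderm library (edgeR adjusted p = 0.64 and 0.43), hPSC repeat 1 (0.063) or either mesoderm library (0.079 and 0.090). In endoderm against hPSC, 0 of 42 members were called, beside 2.12% of all genes, and 0 were called by the gene-level F test. The same count was 0 in mesoderm against endoderm, beside 4.36% of all genes, and 3 by the gene-level F test. Of all 2638 genes, the F test called 130 in endoderm against hPSC and 261 in mesoderm against endoderm.

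The genes RPL39L, RPL7L1, RPL26L1, RPS27L and RPL22L1 are paralogs of RPL39, RPL7, RPL26, RPS27 and RPL22. How the deposited counts treat reads shared by near-identical copies is not given in the sources used here. RPL39L encodes a form of the protein that lines the peptide exit tunnel and is best known from testis and pluripotent cells. It had 50 and 45 reads in hPSC (96.3 and 80.1 CPM), 27 and 16 in ectoderm (22.9 and 16.5 CPM), 9 and 3 in mesoderm (16.9 and 5.95 CPM), and 6 and 16 in endoderm (10.2 and 27.3 CPM). Both hPSC libraries were far above all others, which overlapped.

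Against hPSC, RPL39L was the lowest member in each group, at -2.55 ± 0.40 in ectoderm (edgeR adjusted p = 0.00016), -3.14 ± 0.50 in mesoderm (0.00019), and -1.88 ± 0.45 in endoderm (0.0060). RPL39 itself was not called in any of these with all libraries. It was called lower in ectoderm and mesoderm without hPSC repeat 1 (edgeR adjusted p = 0.040 and 0.049), and with the GC trend removed it was lower in ectoderm (-0.97, adjusted p = 0.021) and higher in endoderm (0.91, adjusted p = 0.044). RPL39L therefore took 58.8% and 50.6% of the reads of the pair in hPSC, 23.5% and 20.3% in ectoderm, 25% and 8.11% in mesoderm, and 10.5% and 25.4% in endoderm.

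Most of the hPSC reads of RPL39L came from transcripts that start upstream, at position 187180908 of chromosome 3 (GRCh38, minus strand). This split was made after the values were seen. From that start came 33 and 35 reads in hPSC, 5 and 3 in ectoderm, 2 and 1 in mesoderm, and 0 and 1 in endoderm. The share in hPSC was 66.0% (exact 95% binomial interval 51.2% to 78.8%) and 77.8% (62.9% to 88.8%), and in ectoderm 18.5% (6.30% to 38.1%) and 18.8% (4.05% to 45.6%). The downstream starts had 17 and 10 reads in hPSC and 22 and 13 in ectoderm, from library totals about 2 times as large in ectoderm. Most upstream transcripts match no reference transcript, and with only matching transcripts counted RPL39L was at -1.08 in ectoderm (adjusted p = 0.085) and -0.50 in endoderm (0.54), no longer called. The endoderm call was also lost without endoderm repeat 1 (-1.23, edgeR adjusted p = 0.12).

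RPL7L1, known as a factor of large subunit assembly, took 20.9% and 25.8% of the reads of RPL7 and RPL7L1 in hPSC, 7.14% and 7.69% in ectoderm, 10.5% and 12.0% in mesoderm, and 40.6% and 41.9% in endoderm. No groups overlapped. RPL7L1 alone had 110 and 112 CPM in hPSC, 70.3 in both ectoderm libraries, 69.7 and 71.5 in mesoderm, and 95.6 and 88.7 in endoderm. It was lower in ectoderm (-1.09 ± 0.29, edgeR adjusted p = 0.0065) and mesoderm (-0.89 ± 0.31, edgeR adjusted p = 0.034), while RPL7 was higher in ectoderm as given above. Its ectoderm call was lost without either ectoderm library (edgeR adjusted p = 0.079 and 0.090), and its mesoderm call held only without hPSC repeat 1 (0.056 to 0.18 without each of the others).

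RPS27L, a paralog induced by p53, took 6.72% and 6.23% of the reads of RPS27 and RPS27L in hPSC, 14.9% and 16.5% in ectoderm, 4.09% and 6.51% in mesoderm, and 4.29% and 10.3% in endoderm. Ectoderm was above all other libraries. RPS27L was called in ectoderm against mesoderm (1.68 ± 0.43, edgeR adjusted p = 0.0074) and not against hPSC (0.91 ± 0.41, edgeR adjusted p = 0.075). It was called against hPSC without hPSC repeat 2 or either endoderm library (edgeR adjusted p = 0.025 to 0.029) and with library totals only (1.33, 0.018). RPL26L1 took 17.6% and 19.3% of the reads of its pair in hPSC, 11.6% and 12.9% in ectoderm, 17.1% and 6.94% in mesoderm, and 17.7% and 20.5% in endoderm. RPL22L1 took 13.8% and 3.77% in hPSC and 2.56% to 6.82% elsewhere, from 1 to 8 reads.

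**Figure D5:**
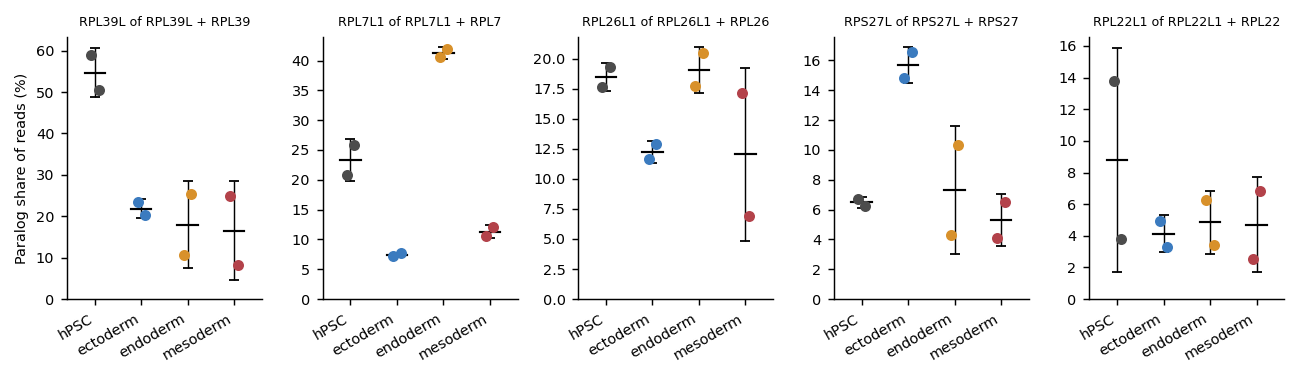
Paralog reads as a percent of the reads of the paralog and its parent gene (y axis, one scale per panel) in the 4 groups. Points are the 2 libraries, lines their mean and bars 1 SD. RPL39L is highest in hPSC at 58.8% and 50.6%, RPL7L1 in endoderm at 40.6% and 41.9%, and RPS27L in ectoderm at 14.9% and 16.5%.

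Genes that work with the ribosomal proteins were described from lists. Ribosomal proteins outside the naming rule include FAU, which is made as a ubiquitin-like fusion, and RACK1, a scaffold on the small subunit. RACK1 was at -2.05 ± 0.32 in ectoderm (edgeR adjusted p = 0.00017), and FAU was at -1.65 ± 0.32 in ectoderm (0.00078) and 0.93 ± 0.31 in endoderm (0.037).

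Of 18 genes for elongation and initiation factors and other TOP mRNAs, a list that also holds FAU and RACK1, 9 were lower and 1 higher in ectoderm, 7 lower and 1 higher in mesoderm, and 2 lower and 2 higher in endoderm. All genes tested were lower and higher at 24.8% and 23.8% in ectoderm, 18.2% and 17.0% in mesoderm, and 13.7% and 13.4% in endoderm, so the endoderm count was near that background. The gene that rose in ectoderm and mesoderm was EIF3E, an initiation factor 3 subunit, at 1.17 ± 0.34 (edgeR adjusted p = 0.0097) and 1.32 ± 0.34 (0.0079). It had 53.9 and 69.4 CPM in hPSC, 204 and 173 in ectoderm, 192 and 175 in mesoderm, and 25.6 and 39.2 in endoderm.

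Of 29 tested ribosome assembly genes, 18 were lower and 1 higher in ectoderm, 18 lower and 1 higher in mesoderm, and 11 lower and 0 higher in endoderm, beside 24.8% and 23.8%, 18.2% and 17.0%, and 13.7% and 13.4% of all genes. Their medians were -1.07, -1.26 and -0.71, so that in endoderm assembly genes had a lower median than the ribosomal protein genes (0.10). FBL, which methylates rRNA, was lower in ectoderm (-2.26 ± 0.33, edgeR adjusted p = 8.3e-05), mesoderm (-2.21 ± 0.35, edgeR adjusted p = 0.00018) and in endoderm (-0.92 ± 0.32, edgeR adjusted p = 0.046). MYC, which drives ribosome production genes, had 219.5 and 209.9 CPM in hPSC, 26.3 and 26.9 in ectoderm, 41.4 and 59.5 in mesoderm, and 47.8 and 34.1 in endoderm. It was lower in all 3 groups, at -3.43 ± 0.33 in ectoderm (edgeR adjusted p = 1.9e-06), -2.33 ± 0.32 in mesoderm (6.4e-05), and -2.06 ± 0.33 in endoderm (0.00028). Of the 5 tested genes in the MYC list, MYC was the only gene called in ectoderm. In mesoderm 2 were lower and 1 higher, and in endoderm 1 lower and 1 higher, beside the shares of all genes given above.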

How the data were processed

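The members and the gene lists were chosen with earlier results of these data known. The authors deposited whole raw counts per transcript of a combined assembly. The endoderm columns were recorded here under the unit expected counts, but hold whole counts, and nothing was rounded. minimap2, StringTie, GRCh38 and hg38 are named in the submitters' processing notes. The counter, the versions and the use of strand are not given in the sources used here. Each gene was counted by adding up the transcripts that carry its name in the assembly, and position-only transcripts were kept as separate loci. Counts were fitted in edgeR 4.0.16 (R 4.3.3) with TMM factors, filterByExpr at a minimum count of 10 and a two-sided quasi-likelihood test over all 8 libraries, 2 against 2, with Benjamini-Hochberg adjustment over 10847 genes. Transcript choice used diffSpliceDGE on 12272 transcripts. DESeq2 1.42.0, other scalings, filters, length and GC trends and leaving out each library were alternatives. CPM uses the library total. Sequences are from RefSeq (GRCh38.p14) and GENCODE 29. Named genes were RPS24, RPS14, RPL37A, the paralog pairs, the stalk, the 3 most read members, and per comparison with hPSC the 4 highest and 4 lowest called members with at least 10 CPM and the 3 clearest transcript choice calls. Some of the genes that the rule or a list names are not reported here. On counts simulated with 200 of 10847 genes changed 4-fold, 82.5% were recovered in ectoderm, 74.5% in endoderm and 67% in mesoderm, each against hPSC. Of the calls, 6.8%, 6.9% and 4.3% were false. Smaller changes were not simulated.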

Additional observations from a re-analysis of the deposited data

How the results depend on the processing

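No group of more than 2 libraries exists, and each library left out leaves a lone one that is assumed to vary like the other groups. Members called in the order ectoderm, endoderm and mesoderm against hPSC, ectoderm against endoderm, ectoderm against mesoderm, mesoderm against endoderm, and 4 groups numbered 55, 6, 42, 63, 4, 55 and 65. With each library left out they ranged from 30 to 64, 0 to 19, 11 to 61, 49 to 66, 0 to 15, 31 to 66 and 54 to 71. The calls over all genes changed in these fits too. DESeq2 gave 3 for endoderm and 2 for ectoderm against mesoderm, beside 1836 and 2015 of all 10847 genes. No filter on low counts gave 2 for the latter, beside 4830 of 29937 genes. Library totals only gave 33 for mesoderm against endoderm, beside 5448 of 10847. With the assembled length trend removed, 28 were called in ectoderm, 21 in mesoderm, 30 in mesoderm against endoderm and 41 over the 4 groups. Of all genes, 3898, 3420, 4639 and 7659 were called in that fit. The GENCODE length trend gave 34, 21 and, for ectoderm against mesoderm, 8, beside 4655, 3598 and 3427. The GC trend gave 2 in endoderm and 1 in ectoderm against mesoderm, beside 2789 and 3194. Both of these trends, and the share over GENCODE lengths, were chosen after seeing the data.

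Transcript choice calls were 5, 0, 2, 5, 1 and 0 in the same order, and ranged from 0 to 8, 0 to 0, 0 to 5, 1 to 11, 0 to 1 and 0 to 4 with a library left out. The gene-level F test gave 8 in ectoderm, 8 in mesoderm, 8 in ectoderm against endoderm and 3 in mesoderm against endoderm. Of all 2638 genes it called 153, 184, 389 and 261. A minimum count of 5 gave 1 in mesoderm and 0 in ectoderm against mesoderm, beside 77 and 58 of all 5029 genes. Repeat numbers did not pair the libraries: deviations of same-numbered libraries correlated from -0.0966 to 0.217. With the replicate block the gene counts were 54, 4, 40, 63, 3, 52 and 63, and the transcript choice counts in mesoderm and in ectoderm against mesoderm were 1 and 0. Beside these, 5108, 2799, 3613, 6731, 3648, 4975 and 8275 of all 10847 genes were called. For transcript choice it was 59 and 38 of all 2638. RPLP2 and RPL13 then lost their endoderm calls.

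The highest minus the lowest group share of ribosomal protein reads was 1.26 percentage points, 5.91 among assembled transcripts up to 1500 nt and 2.76 among GENCODE transcripts up to that length. Leaving out a library gave 1.08 to 9.66 for the RPL22L1 share, 6.44 to 12.2 for RPL26L1 and 22.2 to 30.7 for the most read RPS24 transcript. Changes of sign were counted only where the value was called in the main fit or in the alternative. There were 4, all with the assembled length trend removed: RPL22 in ectoderm (0.79), RPS24 in ectoderm (1.11), RPLP2 in mesoderm (0.025) and RPS27 in mesoderm (0.82). The cause was not tested. Of the other comparisons of named genes with their alternatives, 1323 kept their call or lack of a call, 104 lost and 51 gained a call. The 1323 may include changes of sign among values called in neither fit. Reads per member, from 29 to 13466 over all libraries, limit the low members and the transcript shares most.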

Other observations

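Ribosomal proteins of the mitochondrion are encoded by a separate set of nuclear genes. Of 81 such genes in the table, 74 were tested. In ectoderm against hPSC, 47 were lower and 3 higher with a median log2 fold change of -1.14. In mesoderm 36 were lower and 0 higher (median -1.02), and in endoderm 15 were lower and 4 higher (median -0.26). Of all genes tested, 24.8% were lower and 23.8% higher in ectoderm, 18.2% and 17.0% in mesoderm, and 13.7% and 13.4% in endoderm. The cytoplasmic set had medians of -1.08, -0.90 and 0.10. The mitochondrial set made up 0.553% and 0.605% of reads in hPSC, 0.379% and 0.361% in ectoderm, 0.358% and 0.321% in mesoderm, and 0.428% and 0.446% in endoderm.

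Pseudogenes of ribosomal proteins, which are not members, held 293 and 282 reads in hPSC, 845 and 729 in ectoderm, 321 and 286 in mesoderm, and 301 and 277 in endoderm. This was 0.0473% to 0.0754% of a library, with both ectoderm libraries highest.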
